A study of Mus musculus with 18 samples.

Results

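Scd1 and 9 further genes of fatty acid synthesis, elongation and desaturation were followed through the count table of mouse bone marrow-derived macrophages (BMDMs) with and without the Prep gene. The genes were Srebf1, Acly, Acaca, Fasn, Elovl6, Elovl5, Scd1, Scd2, Fads1 and Fads2, which make up 10 of the 16314 gene symbols in the table, and all 10 were among the 12021 genes with enough counts to be tested. Scd1 was selected on its measured rise in knockout cells of the M1 and M2 states, so its values in those states are given as a description without a test. The other 9 genes were listed by their place in the pathway, with earlier results of these data already known. The question asked of them was whether they moved in the same direction as Scd1.

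Fatty acids are built in the cytosol from citrate that leaves the mitochondrion. ATP citrate lyase (Acly) turns citrate into acetyl-CoA, acetyl-CoA carboxylase (Acaca) turns acetyl-CoA into malonyl-CoA, and fatty acid synthase (Fasn) assembles both into palmitate. Elongases and desaturases then lengthen the chains and insert double bonds, and the genes of these steps are classical targets of the SREBP transcription factors, of which Srebf1 encodes one, and in part of the liver X receptors (LXRs).

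The control BMDMs were heterozygous (Prep+/-) and the knockout BMDMs homozygous (Prep-/-) for the Prep deletion, on the C57BL6/J background and from littermates, so no wild-type cells served as a reference. Both genotypes carried at least 1 deleted allele and had been grown for 7 days in M-CSF at 50 ng/ml, a factor that turns marrow precursors into macrophages. M0 cells received nothing further. M1 cells were exposed for 24 h to lipopolysaccharide (LPS, 50 ng/ml), and M2 cells for 24 h to interleukin-4 and interleukin-13 (20 ng/ml each). Each of the 6 groups had 3 libraries, numbered as replicates 1 to 3, and each library is the mRNA of a whole culture, in which fewer cells of a type and less RNA per cell cannot be told apart. Library totals lay between 19068237 and 22598279 counts. Prep itself, as a check of the labels, had mean normalized counts of 632 to 820 in the Prep+/- groups and 38.6 to 59.9 in the Prep-/- groups. Normalized counts are counts scaled to a common library size by TMM, and a gene was called when its Benjamini-Hochberg adjusted p from edgeR's quasi-likelihood test was under 0.05 and its fold change over 1.5. The median log2 difference over all genes was between 0.0185 and 0.0357 in the 3 knockout comparisons.

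CPM are counts scaled to a TMM-adjusted library total of 1000000. Markers that define macrophages were abundant in every library, with a summed level of 7 genes between 9958 and 47592 CPM. Their sum was higher in Prep-/- than in Prep+/- cells in M0 (29989 to 47592 against 18733 to 22167 CPM) and in M2 (13817 to 19505 against 9958 to 12160 CPM), and lower in M1 (30443 to 36405 against 44529 to 45873 CPM). Since Scd1 is abundant in liver and fat, markers of both tissues were read as well. Hepatocyte markers (6 of 7 in the table) summed to at most 0.868 CPM in 17 of the libraries and to 15.3 CPM in Prep-/- M0 replicate 3, where Alb, the serum albumin gene, gave 11.8 CPM. Adipocyte markers (6 of 10 in the table) summed to 5.61 to 13.7 CPM in Prep-/- M2 and to 0.134 to 0.895 CPM in Prep+/- M2, and to at most 0.6 CPM elsewhere. Among them Adipoq reached 13.7 CPM, whereas Plin1 and Cidec, which coat the lipid droplets of adipocytes, stayed at or below 0.0789 and 0.1 CPM in all 18 libraries. Markers of stroma ranged from 8.72 to 42.1 CPM, of granulocyte precursors from 10.7 to 83.8 CPM, of B cells from 0.959 to 11.5 CPM, of dendritic cells from 0.2 to 2.64 CPM and of erythroid cells from 0 to 0.377 CPM. In Prep-/- M0 against Prep+/- M0, granulocyte precursor markers were at 36 to 83.8 against 17.2 to 22.3 CPM and B cell markers at 8.66 to 11.5 against 3.01 to 4.79 CPM. The part of these other cells in the differences below was not tested. Values without 1 library, given below for some genes, do not test it, since several of these marker sums were raised in all 3 libraries of a group.

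In the GRCm39 annotation, 4 of the genes lie on chromosome 19. Scd1 (ENSMUSG00000037071, chr19:44382894-44399154, minus strand) and Scd2 (ENSMUSG00000025203, chr19:44281613-44295303, plus strand) are near neighbours, as are Fads2 (ENSMUSG00000024665, chr19:10038130-10079203, minus strand) and Fads1 (ENSMUSG00000010663, chr19:10160167-10174241, plus strand). A further 4 lie on chromosome 11, namely Fasn (chr11:120696672-120715995), Acaca (chr11:84020476-84292477), Acly (chr11:100367165-100440756) and Srebf1 (chr11:60089913-60113407). Elovl5 is at chr9:77818113-77891802 and Elovl6 at chr3:129326004-129432144. Acaca, Acly and Srebf1 overlap the named genes Tada2a, Odad4 and Rai1 on the opposite strand, and the way strand was handled in counting is not given in the sources used here.

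RefSeq promoters, 250 bases before to 50 bases after each annotated start (table build GRCm38.p6), matched 7 of the 10 genes through 9 starts. Scd1, Scd2 and Fads1 did not match. Each of the 9 sequences was found once by exact match on its GRCm39 chromosome. The 250 bases before the start are shown for Fads2, which had the largest difference of the 9 genes in M1, and for Fasn and Elovl5, whose promoters held the most CCAAT boxes, with CCAAT boxes (CCAAT or ATTGG) and E-boxes (CACGTG) in capitals.
Fads2, chr19:10078868-10079117, minus strand: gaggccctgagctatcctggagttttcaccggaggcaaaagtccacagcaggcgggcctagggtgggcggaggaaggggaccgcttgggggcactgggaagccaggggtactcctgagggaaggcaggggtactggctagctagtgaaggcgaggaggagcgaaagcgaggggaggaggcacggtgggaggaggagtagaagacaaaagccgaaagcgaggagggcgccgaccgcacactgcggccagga
Fasn, chr11:120715374-120715623, minus strand: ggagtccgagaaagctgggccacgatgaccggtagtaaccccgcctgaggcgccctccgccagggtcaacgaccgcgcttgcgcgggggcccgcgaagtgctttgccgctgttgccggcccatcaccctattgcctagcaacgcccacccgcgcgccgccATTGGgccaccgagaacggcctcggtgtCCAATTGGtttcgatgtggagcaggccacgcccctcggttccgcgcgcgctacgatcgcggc
Elovl5, chr9:77824397-77824646, plus strand: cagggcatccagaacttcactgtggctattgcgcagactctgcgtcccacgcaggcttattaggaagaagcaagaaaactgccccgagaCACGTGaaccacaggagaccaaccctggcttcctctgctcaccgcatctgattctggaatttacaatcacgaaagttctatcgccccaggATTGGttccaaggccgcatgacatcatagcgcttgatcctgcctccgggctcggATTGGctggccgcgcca
The CCAAT box, known as a binding site of NF-Y that often stands beside SREBP sites, was searched on both strands of the 300 bases. It was present at 5 of the 9 starts, which belong to 4 genes (Fasn, Elovl5, Acly and Srebf1), against 37.4% of all 32851 promoters in the table. In Fasn the matches began at positions -90, -62 and -59 from the start, where the last 2 share letters, and in Elovl5 at -71 and -17. The E-box was present in Elovl5 alone at -161, against 7.15% of all promoters. The sterol regulatory element core TCACNCCAC (1.24% of all promoters) and the LXR element, a spaced direct repeat of AGGTCA (0.0152%), matched none of the 9 starts. A GC box (GGGCGG) was present at 4 of the 9 starts, which belong to Fads2, Acly and Srebf1, against 35.7% of all promoters. These matches describe letters in the window and were not tested as binding sites.

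Levels were compared between genes as FPKM, that is CPM divided by summed exon length in kilobases. In Prep+/- cells Scd1 had the lowest level of the 10 genes in all 3 states, with 0.134 ± 0.0267 FPKM in M0, 0.0969 ± 0.0176 in M1 and 0.107 ± 0.0696 in M2 (mean ± SD, n = 3). Scd2, the second isoenzyme of the same reaction, stood at 8.98 ± 1.89 FPKM in Prep+/- M0, and Fads1 was the most abundant there at 25 ± 1.73 FPKM. In Prep-/- M1 cells Scd1 was at 2.27 ± 0.47 FPKM and ranked 8 of the 10 genes (9 by the length of the longest transcript), while Scd2 was the most abundant at 122 ± 17.4 FPKM. In Prep-/- M2 cells Scd1 was at 2.75 ± 2.72 FPKM and Scd2 again the most abundant, at 65.1 ± 57.8 FPKM.

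**Figure D1:**
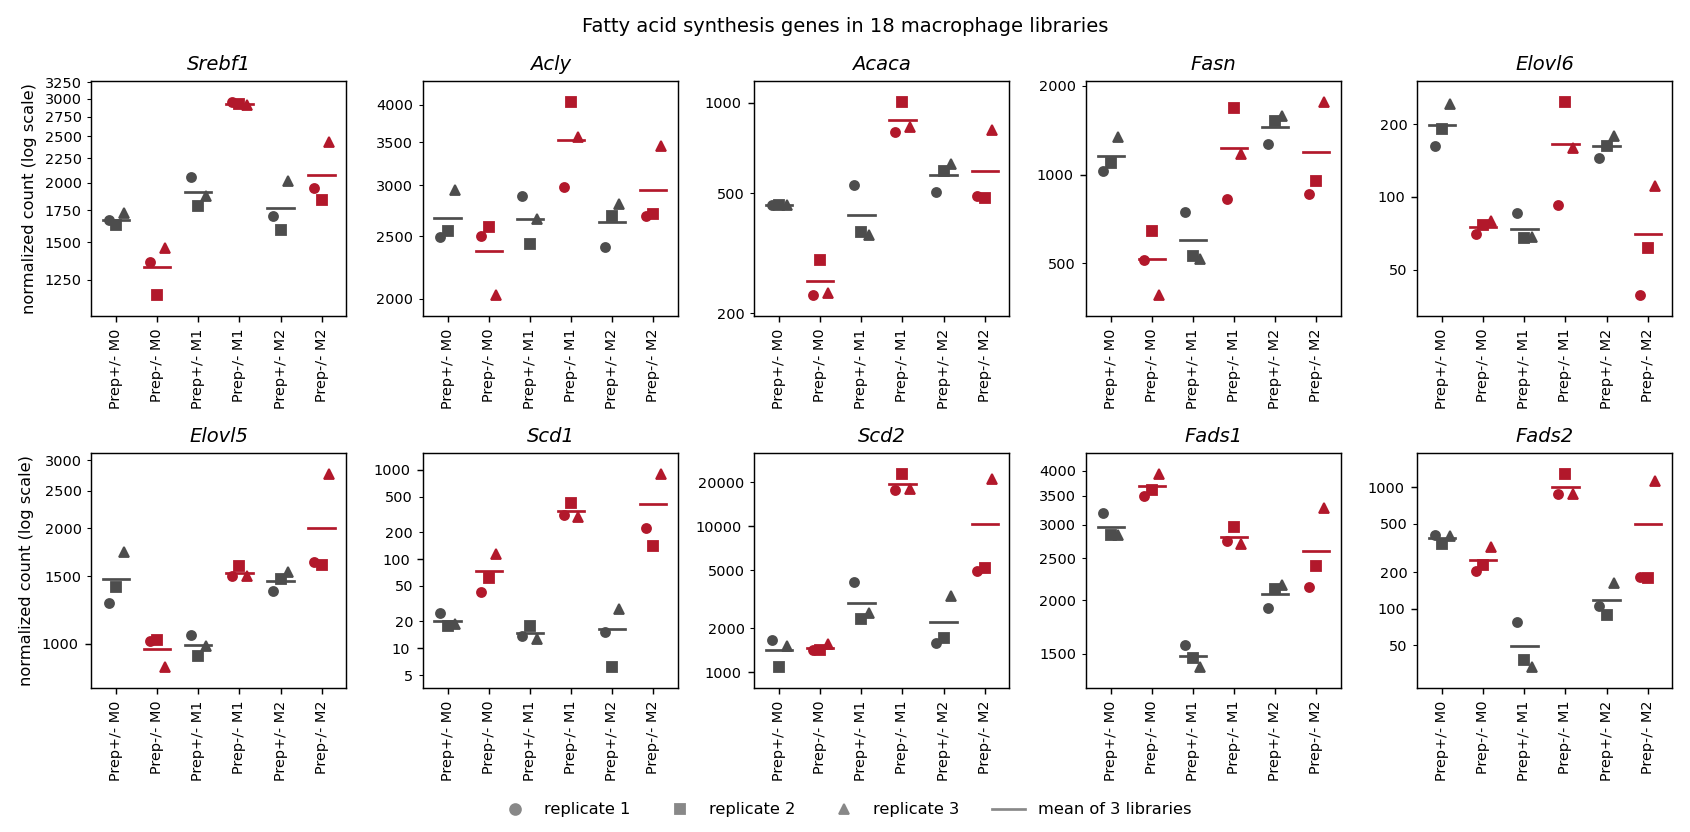
Normalized counts (log scale, a separate range in each panel) of the 10 genes in the 18 libraries, with Prep+/- in grey, Prep-/- in red, 1 symbol per replicate number and a line at each group mean. Prep-/- M1 libraries lie above Prep+/- M1 libraries for all 10 genes, and replicate 3 of Prep-/- M2 lies above the other Prep-/- M2 libraries for all 10 genes.

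Scd1 encodes a stearoyl-CoA desaturase, which puts the first double bond into saturated fatty acids and so makes oleate and palmitoleate. In M0 its normalized counts were 25.1, 17.5 and 18.7 for Prep+/- and 43.2, 61.1 and 115 for Prep-/- cells. M1 cells had 13.7, 17.9 and 12.8 without and 311, 428 and 297 with the knockout. The M2 libraries gave 15.3, 6.21 and 27.4 for Prep+/- and 224, 139 and 896 for Prep-/- cells. The 3 Prep+/- groups overlapped each other, Prep-/- M0 lay above all of them, and Prep-/- M1 and M2 lay above Prep-/- M0 and overlapped each other. The difference between genotypes was 4.53 on the log2 scale in M1 (SE 0.669, 23.2-fold) and 4.69 in M2 (SE 0.644, 25.8-fold), and in each it ranked 5 among the rises of 12021 genes. These values chose Scd1 and carry no test here. The Prep+/- end of the comparison rested on low values, with raw counts of 7 to 29 per library.

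In M0, which did not enter the choice, Scd1 was higher in Prep-/- cells by 1.84 on the log2 scale (SE 0.63, 3.58-fold, adjusted p = 0.0235), in 3 of 3 libraries. Prep-/- M0 replicate 3 had the highest Alb level of all libraries and the highest Scd1 value of its group. Leaving it out gave 1.35 with an adjusted p of 0.113. The call was also lost without Prep+/- M0 replicate 2 (1.72, adjusted p = 0.078) or replicate 3 (1.77, adjusted p = 0.0717), and over the alternatives other than the test against a fold of 1.5 the adjusted p ran from 0.00335 to 0.113.

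Scd1 shares sequence with the other Scd genes. The best aligned stretch of the longest transcripts was 86.8% identical with Scd2 over 1261 positions, with a longest identical run of 147 bases, and 90.4% identical with Scd3 over 1084 positions, with a run of 185 bases. Of the counts of Scd1 and Scd2 together, Scd1 held 0.328% to 1.58% in the Prep+/- libraries. The Prep-/- libraries gave 2.96% to 6.82% in M0, 1.63% to 1.86% in M1 and 2.6% to 4.36% in M2. In M0 the share was higher in Prep-/- cells, and Scd2 differed by 0.04 on the log2 scale (SE 0.436, adjusted p = 0.948). In M1 the share was 0.328% to 0.768% in Prep+/- cells, and Scd2 rose by 2.69 (SE 0.46). The Prep-/- M1 share was close to the 1.21% to 1.58% of Prep+/- M0. Whether reads of Scd2 were counted for Scd1 was not tested. How reads that match several of these genes were counted is not given in the sources used here. Scd3 had 0 or 1 counts in every library. Scd4 had 0 to 5 counts in the M0 and Prep+/- libraries, 4 to 8 in Prep-/- M2 and 12 to 14 in Prep-/- M1.

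In M1 the other 9 genes were higher with the knockout, though not all were called. Of the 9 genes other than Scd1, 8 were called higher in Prep-/- M1 and 0 lower, where 12.3% of all genes tested were called higher and 10.2% lower. The median difference of the 9 genes was 1.03 on the log2 scale, against 0.036 for all genes. For each of the 9 genes, the 3 Prep-/- libraries lay above the 3 Prep+/- libraries.

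Fads2, the delta-6 desaturase at the entry to long polyunsaturated fatty acids, had normalized counts of 77.5, 38.1 and 33.3 in Prep+/- M1 and 869, 1274 and 880 in Prep-/- M1. The lowest Prep-/- value was above every Prep+/- value by a wide margin, and the rise of 4.33 (SE 0.617, 20.1-fold, adjusted p = 0.000155) ranked 8 among all genes. Scd2 was at 4150, 2306 and 2543 in Prep+/- M1 and at 17678, 22594 and 17904 in Prep-/- M1. It rose by 2.69 (SE 0.46, 6.46-fold, adjusted p = 0.00052), rank 68. Fads1, the delta-5 desaturase that acts after Fads2 and elongation, was at 1568, 1467 and 1399 against 2752, 2968 and 2709 and rose by 0.93 (SE 0.127, adjusted p = 0.000122).

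Among the steps up to palmitate, Acaca, the committed step, was at 534, 374 and 363 in Prep+/- M1 and 799, 1005 and 830 in Prep-/- M1, a rise of 1.05 (SE 0.195, adjusted p = 0.00093). Fasn was at 750, 529 and 517 against 826, 1678 and 1178, a rise of 1.03 (SE 0.279, adjusted p = 0.00949), and its lowest Prep-/- value was close to its highest Prep+/- value. Acly, which supplies the acetyl-CoA, differed by 0.41 (SE 0.136, 1.33-fold, adjusted p = 0.0278) and was the 1 gene of the 9 not called, because its fold change was under 1.5. Among the elongases, Elovl6, which extends palmitate to stearate, was at 85.4, 67.8 and 68 against 92.4, 246 and 159 and rose by 1.17 (SE 0.335, adjusted p = 0.0131). Elovl5, which extends polyunsaturated chains, rose by 0.63 (SE 0.169, adjusted p = 0.00955) from 930 to 1054 up to 1498 to 1593. Srebf1 had 2060, 1788 and 1878 in Prep+/- M1 and 2951, 2922 and 2909 in Prep-/- M1, and rose by 0.62 (SE 0.118, 1.53-fold, adjusted p = 0.00113).

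Without Prep+/- M1 replicate 2 the count of genes called higher fell from 8 to 5, since Elovl5 (0.58) and Srebf1 (0.57) dropped under the fold of 1.5 and Elovl6 (1.11) had an adjusted p of 0.0521. Without Prep-/- M1 replicate 2, Fasn (0.73, adjusted p = 0.0549) and Elovl6 (0.76, adjusted p = 0.0872) were not called. Scd2, Acaca, Fads1 and Fads2 were called without any 1 of the 6 libraries.

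In unstimulated M0 cells the direction was the other way for several steps. Of the 9 genes, 4 were called lower in Prep-/- M0 and 0 higher, where 17.2% of all genes were lower and 15.4% higher, and the median of the 9 genes was -0.60. Elovl6 fell from normalized counts of 163, 191 and 243 to 70.3, 76.2 and 79.1, by 1.40 (SE 0.328, adjusted p = 0.0022). Fasn fell by 1.16 (SE 0.279, adjusted p = 0.00271), from 1030, 1097 and 1338 to 514, 644 and 392. Acaca fell by 0.84 (SE 0.198, adjusted p = 0.00223), from 459, 459 and 457 to 231, 300 and 234. Elovl5 fell by 0.60 (SE 0.169, adjusted p = 0.00796), from 1275, 1407 and 1730 to 1016, 1026 and 873. For these 4 genes every Prep-/- library lay below every Prep+/- library. The Elovl5 fold of 1.51 was at the edge of the criterion and was not called without Prep+/- M0 replicate 3 (-0.48) or Prep-/- M0 replicate 3 (-0.54).

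Among the desaturases in M0, Scd1 was higher, as given above, and Fads1 differed by 0.32 (SE 0.126, adjusted p = 0.047), a fold of 1.25 under the criterion, with all 3 Prep-/- libraries (3503, 3621 and 3930) above the Prep+/- libraries (3196, 2840 and 2840). Fads2 was at 405, 338 and 396 against 203, 227 and 323, so all 3 Prep-/- libraries lay below the Prep+/- libraries, but the difference of -0.60 was not called (SE 0.518, adjusted p = 0.358). Srebf1 was at 1666, 1626 and 1723 against 1362, 1164 and 1456, a difference of -0.33 (SE 0.118, adjusted p = 0.0285) under the fold criterion. Acly differed by -0.17 (SE 0.135, adjusted p = 0.32).

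**Figure D2:**
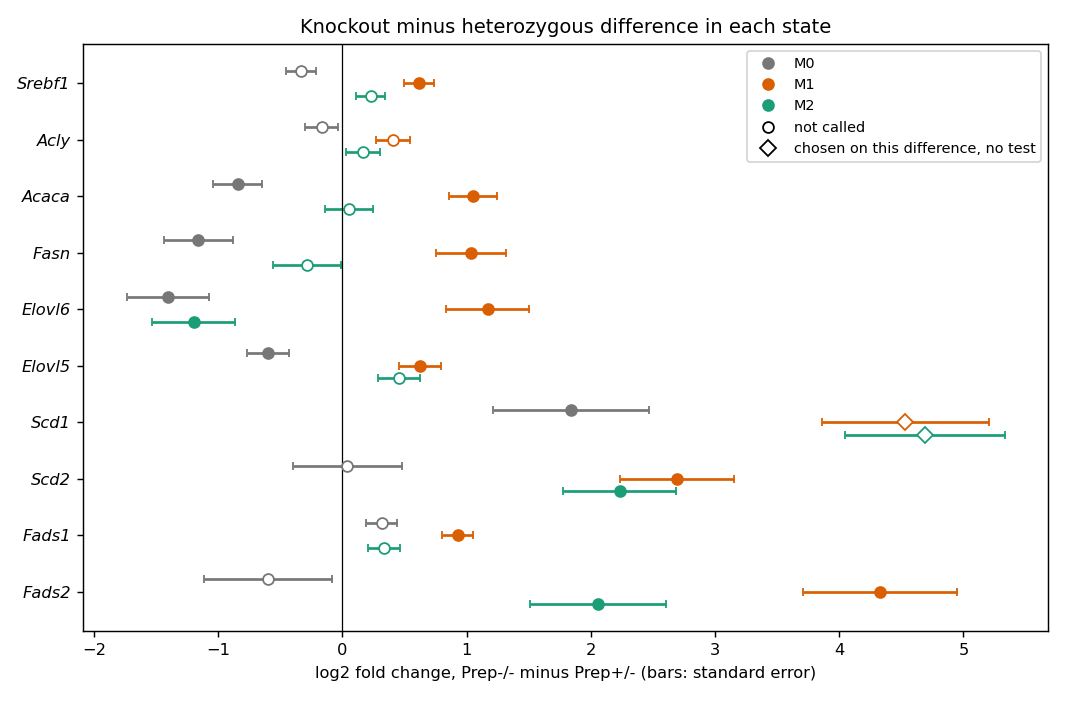
Log2 difference of Prep-/- minus Prep+/- cells for each gene in M0 (grey), M1 (orange) and M2 (green), with the standard error as bars, filled symbols for called genes and diamonds for the 2 Scd1 values on which the gene was chosen. Fasn, Acaca, Elovl5 and Elovl6 lie below 0 in M0 and above 0 in M1, and Elovl6 lies below 0 in M2 at -1.20.

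In M2 cells 2 of the 9 genes were called higher (Scd2 and Fads2) and 1 lower (Elovl6), where 6.37% of all genes were higher and 9.82% lower. Scd2 had normalized counts of 1578, 1728 and 3313 in Prep+/- M2 and 4902, 5200 and 20994 in Prep-/- M2, a rise of 2.23 (SE 0.452, adjusted p = 0.00181). Fads2 was at 106, 88.8 and 161 against 182, 178 and 1118, a rise of 2.06 (SE 0.545, adjusted p = 0.0112). In both genes the groups did not overlap, and 1 Prep-/- library stood far above the others. Elovl6 was at 144, 162 and 179 against 39.4, 61.4 and 111 and fell by 1.20 (SE 0.332, adjusted p = 0.0148). Elovl5 differed by 0.45 (adjusted p = 0.0581) and was called without Prep-/- M2 replicate 2 (0.59, adjusted p = 0.0187), which left 3 genes higher. Fads1 differed by 0.33 (adjusted p = 0.0638), Srebf1 by 0.23 (adjusted p = 0.171), Acly by 0.16 (adjusted p = 0.409), Acaca by 0.05 (adjusted p = 0.883) and Fasn by -0.29 (adjusted p = 0.479).

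Prep-/- M2 replicate 3 was the library that stood apart. Relative to the mean of replicates 1 and 2 of its group, it held 6.21 times as much Fads2, 4.95 times as much Scd1 and 4.16 times as much Scd2, and 1.44 to 2.2 times as much Fads1, Acaca, Elovl5, Fasn and Elovl6. In Prep+/- M2 replicate 3 was also the highest library for Scd1 (27.4), Scd2 (3313) and Fads2 (161). The summed level of 22 cholesterol synthesis genes was 1832 CPM in Prep-/- M2 replicate 3 against 879 and 843 CPM in replicates 1 and 2. Its normalized counts were 3.04 for Nos2 and 8.12 for Il1b, both typical of LPS exposure. Of markers typical of IL-4 exposure, Arg1 was at 10471, against 7059 and 10010 in replicates 1 and 2. Chil3 was at 50066 against 85085 and 64644, Retnla at 69548 against 129537 and 103427, and Mrc1 at 25610 against 33911 and 40849. Replicate 3 was thus the highest of its group for Arg1 and the lowest for Chil3, Retnla and Mrc1. Its adipocyte markers, at 5.61 CPM, were the lowest of the Prep-/- M2 group. Also lowest there were its macrophage (13817 against 19505 and 17415 CPM), granulocyte precursor (14.1 against 19.4 and 22.5 CPM) and B cell markers (0.959 against 4.33 and 4.45 CPM). Its stromal (39.9 against 25.2 and 23.1 CPM), dendritic cell (2.64 against 1.31 and 1 CPM) and hepatocyte markers (0.719 against 0.453 and 0.7 CPM) were the highest. The part of such cells in its values was not tested.

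Without that library the Scd1 difference in M2 was 3.49 (SE 0.435) and Scd2 rose by 1.21 (SE 0.281, adjusted p = 0.00374). Fads2 differed by 0.62 (SE 0.301, adjusted p = 0.131) and was no longer called, Elovl6 fell by 1.67 (SE 0.33, adjusted p = 0.00116), and Fasn fell by 0.67 (SE 0.249, adjusted p = 0.04997). The 9 genes then gave 1 call higher and 2 lower, beside 8.61% and 13% of 12146 genes tested. The single Prep+/- M2 replicate 2 also decided the Fads2 call, which had an adjusted p of 0.0545 without it, and the Elovl6 call was lost without Prep-/- M2 replicate 1 (-0.92, adjusted p = 0.0735) or replicate 2 (-1.11, adjusted p = 0.0507).

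**Figure D3:**
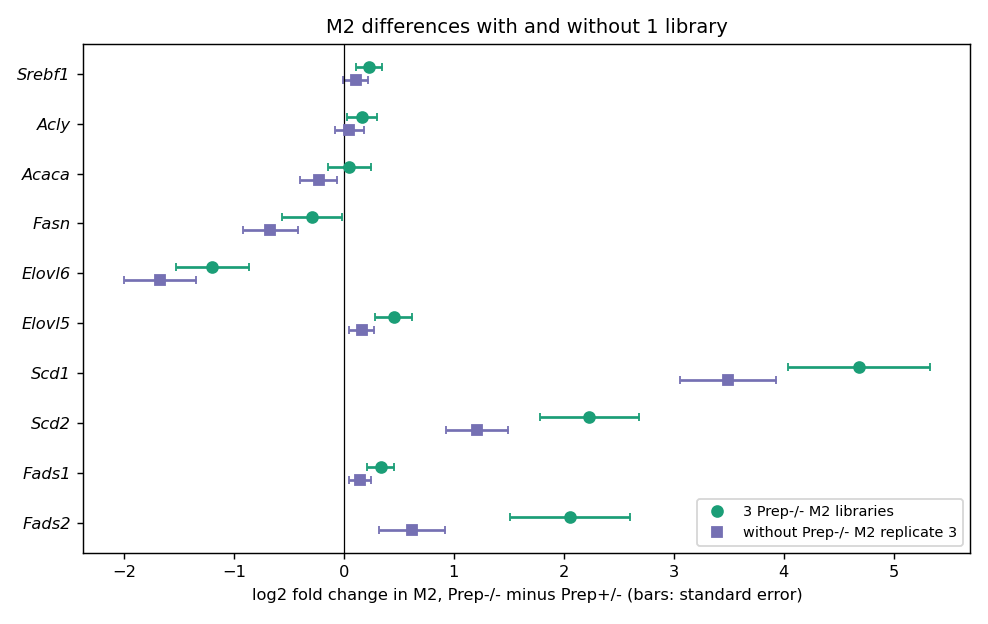
Log2 difference of Prep-/- minus Prep+/- M2 cells for each gene with all 3 Prep-/- libraries (green circles) and without replicate 3 (purple squares), with the standard error as bars. Fads2 moves from 2.06 to 0.62 and Scd2 from 2.23 to 1.21, while Elovl6 moves from -1.20 to -1.67.

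The response to LPS differed between the genotypes. In Prep+/- cells, M1 against M0, 4 of the 9 genes were called lower and 0 higher, where 20.9% of all genes were lower and 16.7% higher. Fads2 fell by 2.92 (SE 0.602, adjusted p = 0.000641), Elovl6 by 1.43 (SE 0.333, adjusted p = 0.00172), Fads1 by 1.001 (SE 0.128, adjusted p = 5.49e-06) and Fasn by 0.95 (SE 0.279, adjusted p = 0.00903). Scd2 was at 1.07 with an adjusted p of 0.0512. Elovl5 differed by -0.57 (SE 0.169, adjusted p = 0.00961), a fold of 1.48 under the criterion. It was called under upper quartile scaling (-0.69), without Prep+/- M0 replicate 1 or 2, and without Prep+/- M1 replicate 1 or 3. In Prep-/- cells 7 of the 9 genes were called higher in M1 than in M0 and 0 lower, where 20.9% of all genes were higher and 21.0% lower. Scd2 rose by 3.72 (SE 0.482, adjusted p = 6.42e-06), Fads2 by 2.01 (SE 0.526, adjusted p = 0.00382), Acaca by 1.78 (SE 0.2, adjusted p = 1.38e-06), Fasn by 1.25 (SE 0.28, adjusted p = 0.00117), Elovl6 by 1.14 (SE 0.33, adjusted p = 0.00727), Srebf1 by 1.14 (SE 0.119, adjusted p = 6.55e-07) and Elovl5 by 0.66 (SE 0.169, adjusted p = 0.00335). Without Prep-/- M1 replicate 2 the count fell from 7 to 5, since Elovl6 (0.70, adjusted p = 0.0804) and Elovl5 (0.58, under the fold criterion) were not called. Elovl5 was also under that criterion without Prep-/- M0 replicate 3 (0.55) and under upper quartile scaling (0.53), which shifted the median of all genes by -0.13 in this comparison and by -0.12 in Prep+/- cells. Fads1 differed by -0.39 in Prep-/- cells, a fold of 1.31, and Acly by 0.57, a fold of 1.49.

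The test of the difference itself, the knockout effect in M1 minus that in M0, called 8 of the 9 genes higher and 0 lower, where 12.0% of all genes were higher and 9.15% lower. The size was 4.93 for Fads2 (SE 0.8, adjusted p = 0.000486), 2.65 for Scd2 (SE 0.624, adjusted p = 0.00635), 2.57 for Elovl6 (SE 0.469, adjusted p = 0.00111), 2.19 for Fasn (SE 0.395, adjusted p = 0.00103) and 1.89 for Acaca (SE 0.278, adjusted p = 0.000221). It was 1.23 for Elovl5 (SE 0.239, adjusted p = 0.00186), 0.95 for Srebf1 (SE 0.167, adjusted p = 0.000889) and 0.61 for Fads1 (SE 0.178, adjusted p = 0.0205). Fads1 was at the edge of the fold criterion and lost its call under DESeq2 (0.58) and without any of 5 single libraries. Acly, at 0.57 (SE 0.192, adjusted p = 0.0379), was under the criterion and was called when any 1 of 5 libraries was left out (0.60 to 0.67), of which 3 were also among the 5 for Fads1. The Scd1 value, 2.69, is a description.

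Exposure to IL-4 and IL-13 moved few genes in Prep+/- cells, among the 9 genes as among all genes tested. Of the 9 genes 1 was called lower in M2 than in M0, Fads2 at -1.68 (SE 0.542, adjusted p = 0.0397), and 0 higher, where 6.77% of all genes were lower and 6.09% higher, and the Fads2 call was lost when any 1 of the 6 libraries was left out. In Prep-/- cells 5 genes were called higher and 0 lower, where 14.7% of all genes were higher and 15.5% lower. Scd2 rose by 2.82 (SE 0.463, adjusted p = 0.000132), Acaca by 1.22 (SE 0.198, adjusted p = 0.000118), Fasn by 1.21 (SE 0.28, adjusted p = 0.00231), Elovl5 by 1.04 (SE 0.17, adjusted p = 0.00012) and Srebf1 by 0.64 (SE 0.119, adjusted p = 0.000353). Without Prep-/- M2 replicate 3, Scd2 (1.77), Acaca (0.92), Fasn (0.80) and Elovl5 (0.73) were called higher, Fads1 (-0.71, adjusted p = 4.88e-05) lower, and Srebf1 (0.50) was under the fold criterion, as it was without Prep-/- M0 replicate 2 (0.53), beside 11.7% of all genes higher and 14.3% lower.

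The knockout effect in M2 minus that in M0 was called higher for Fads2 (2.66, adjusted p = 0.0359), Scd2 (2.19, adjusted p = 0.0362) and Elovl5 (1.05, adjusted p = 0.0125), 3 of the 9 genes, and lower for 0, where 4.53% of all genes were higher and 4.13% lower. Without Prep-/- M2 replicate 3 Elovl5 was called (0.76, adjusted p = 0.00726) and Fads2 (1.21, adjusted p = 0.0747) and Scd2 (1.16, adjusted p = 0.0771) were not. The calls of both genes were lost without any of 8 of the 12 libraries, namely all 3 of Prep+/- M0, replicates 1 and 2 of Prep+/- M2 and of Prep-/- M0, and Prep-/- M2 replicate 3, with adjusted p of 0.0554 to 0.0943 for Scd2 and 0.0524 to 0.0934 for Fads2.

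Other enzymes and carriers of fatty acid synthesis, were tested for 25 of 30 listed genes. With the knockout, M0 gave 2 calls up and 8 down, M1 gave 7 up and 2 down, and M2 gave 4 up and 3 down. The shares of all genes called up and down, in the same order of states, were 15.4% and 17.2%, 12.3% and 10.2%, and 6.37% and 9.82%. Without Prep-/- M2 replicate 3 the M2 counts became 3 up and 6 down, beside 8.61% and 13% of all genes. Acss2, which makes acetyl-CoA from acetate, was higher in all 3 states, by 1.17 in M0 (adjusted p = 2.54e-05), 2.91 in M1 (adjusted p = 1.57e-08) and 0.95 in M2 (adjusted p = 0.000475). Its normalized count in M1 was 106 ± 12 in Prep+/- and 800 ± 86.6 in Prep-/- cells (mean ± SD, n = 3). Me1, the malic enzyme that supplies NADPH, was lower in M0 by -1.88 (adjusted p = 9.86e-05) and in M2 by -1.59 (adjusted p = 0.00119). Idh1, another source of cytosolic NADPH, was higher in M0 by 0.96 (adjusted p = 6.62e-05), in M1 by 0.63 (adjusted p = 0.00387) and in M2 by 0.64 (adjusted p = 0.00424). Hsd17b12 and Hacd1, which act with the elongases, were lower in M0, by -1.63 (adjusted p = 2.42e-05) and -1.61 (adjusted p = 0.00244). The fatty acid activating enzymes Acsl1 (1.54, adjusted p = 0.0012) and Acsl3 (1.45, adjusted p = 0.012) were higher in M1. Mecr of the mitochondrial pathway was lower in M1 (-1.42, adjusted p = 0.00015) and in M2 (-0.81, adjusted p = 0.00703), Hacd3 was lower in M1 (-0.65, adjusted p = 0.000658), and Fads3 was higher in M2 (0.86, adjusted p = 0.00675).

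Cholesterol synthesis genes, the other main branch under SREBP control, were tested for 22 of 23 listed. Against 15.4% up and 17.2% down over all genes, M0 gave 0 calls up and 10 down (median -0.57). Against 12.3% and 10.2%, M1 gave 18 up and 0 down (median 1.11), and against 6.37% and 9.82%, M2 gave 3 up and 0 down (median 0.46). In M0 the largest falls were those of Hsd17b7 (-2.03, adjusted p = 0.00437), Sqle (-1.94, adjusted p = 0.00434) and Idi1 (-1.71, adjusted p = 0.00374). In M1 the largest rises were those of Fdps (1.62, adjusted p = 0.000585), Acat2 (1.49, adjusted p = 0.000272) and Lss (1.48, adjusted p = 0.00137). The M2 calls were Sc5d (1.16, adjusted p = 0.0104), Mvd (0.94, adjusted p = 0.000842) and Nsdhl (0.73, adjusted p = 0.0153), and without Prep-/- M2 replicate 3 the list gave 1 higher and 4 lower, beside 8.61% and 13% of all genes, and its median was 0.04.

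Among 25 regulators of the pathway tested, M0 gave 6 calls up and 1 down, M1 gave 4 and 1, and M2 gave 5 and 0, beside 15.4% and 17.2%, 12.3% and 10.2%, and 6.37% and 9.82% of all genes. Insig1, which holds SREBP in the endoplasmic reticulum and is itself an SREBP target, was higher in M1 (1.34, adjusted p = 5.47e-05) and in M2 (0.97, adjusted p = 0.000396). Pparg, a regulator of fat storage that IL-4 induces, was higher in M1 (1.34, adjusted p = 0.000367) and in M2 (0.73, adjusted p = 0.00514). In M0, Usf1 (1.10, adjusted p = 0.000805), Rxrb (0.87, adjusted p = 0.000208) and Ppard (0.76, adjusted p = 0.00133) were higher and the NF-Y subunit Nfyb lower (-0.63, adjusted p = 0.00223). Mlxip was higher in M0 (0.64, adjusted p = 0.00919) and M2 (0.86, adjusted p = 0.00289), and Lpcat3, which places polyunsaturated chains into phospholipids, was higher in M1 (0.77, adjusted p = 0.000174) and M2 (0.67, adjusted p = 0.000374). Srebf2, which encodes the SREBP of cholesterol synthesis and was named after its values were seen, was higher in M1 (0.64, adjusted p = 0.00756) and differed by -0.54 in M0 (adjusted p = 0.0133), under the fold criterion.

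Of 12 LXR target genes tested, M0 had 8 called higher and 1 lower, M1 had 5 and 0, and M2 had 7 and 0, beside 15.4% and 17.2%, 12.3% and 10.2%, and 6.37% and 9.82% of all genes. Of the 14 listed, Nr1h3 and Lpcat3 are also in the regulator list. Pltp, a phospholipid transfer protein, rose by 3.87 in M0 (adjusted p = 7.48e-07), 3.35 in M1 (adjusted p = 1.25e-05) and 2.68 in M2 (adjusted p = 4e-05). The cholesterol exporter Abca1 rose by 2.47 in M0 (adjusted p = 3.72e-07) and 2.51 in M2 (adjusted p = 1.23e-06), and Apoe by 2.74 in M0 (adjusted p = 2.32e-05) and 1.49 in M2 (adjusted p = 0.00551). Neither Abca1 (0.31, adjusted p = 0.203) nor Apoe (-0.06, adjusted p = 0.91) was called in M1. Abcg1 rose by 1.12 in M0 (adjusted p = 0.000804), 1.58 in M1 (adjusted p = 0.000211) and 0.96 in M2 (adjusted p = 0.00577), and Cd5l by 1.15 in M0 (adjusted p = 0.00159) and 1.38 in M1 (adjusted p = 0.00105).

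Triglyceride and lipid droplet genes, which store the product, were tested for 19 of 22 listed, where M0 gave 5 up and 3 down, M1 gave 2 and 2, and M2 gave 1 and 0 beside 15.4% and 17.2%, 12.3% and 10.2%, and 6.37% and 9.82% of all genes. The M1 counts were near those shares. Without Prep-/- M2 replicate 3 the M2 counts were 2 up and 1 down. Lpin1, a phosphatidate phosphatase, was higher in M0 (1.02, adjusted p = 0.00466), M1 (1.44, adjusted p = 0.00267) and M2 (0.92, adjusted p = 0.0161), though its M2 groups overlapped. In M0 Lpin2 (1.22, adjusted p = 0.000177) and the lipase Pnpla2 (0.99, adjusted p = 0.000142) were higher and its cofactor Abhd5 lower (-0.63, adjusted p = 0.000184). Fatty acid oxidation genes were tested for 21 of 22 listed, where M0 gave 1 up and 1 down, M1 gave 0 and 1, and M2 gave 0 and 2. None of these counts was above the shares of all genes (15.4% and 17.2%, 12.3% and 10.2%, 6.37% and 9.82%). The calls included Acaa1a higher in M0 (0.82, adjusted p = 0.000341), Etfb lower in M1 (-0.68, adjusted p = 0.0135) and Hadh lower in M2 (-0.65, adjusted p = 0.00667).

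**Figure D4:**
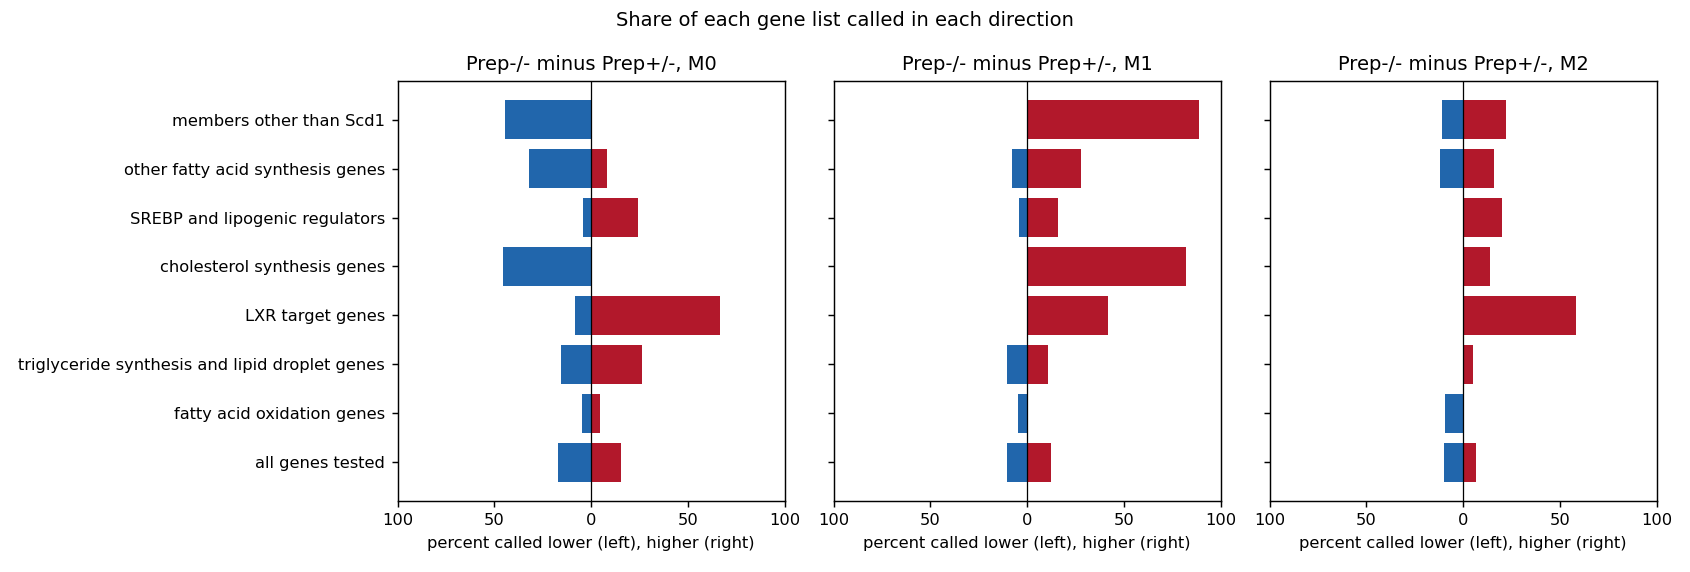
Percent of each gene list called higher (red, right) and lower (blue, left) in Prep-/- against Prep+/- cells in M0, M1 and M2, with all genes tested in the bottom bar. In M1, 8 of the 9 members other than Scd1 and 18 of 22 cholesterol synthesis genes were called higher, and LXR target genes were called higher in each state (8, 5 and 7 of 12).

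Across the 18 libraries, the 5 genes whose log2 CPM followed that of Scd1 most closely, of 9600 genes with a mean of at least 5 CPM, were Vegfa (Pearson r 0.877), Lpcat3 (0.853), Insig1 (0.849), Phlpp1 (0.842) and Aldh1l1 (0.84). Scd2 ranked 9 (0.809) and Fads2 37 (0.76), whereas Fasn (0.174) and Elovl6 (-0.138) did not follow Scd1. These values describe 18 libraries that share genotype, state and scaling in sets of 3. After the group means were removed, the r with Scd1 was 0.837 for Fads2, 0.782 for Scd2, 0.766 for Srebf1 and 0.717 for Fads1. The other members gave 0.241 (Acly) to 0.538 (Acaca). Vegfa gave 0.558, Lpcat3 0.37, Insig1 0.656, Phlpp1 -0.03 and Aldh1l1 -0.331. The r between Scd2 and Fads2 was 0.952 after the group means were removed and 0.589 before. Prep-/- M2 replicate 3 was among the points of all these values. It stood far above its group for Scd1, Scd2 and Fads2, and no r was computed without it. By Spearman rho over the 18 libraries, Lpcat3 ranked 354.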

How the data were processed

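Total RNA of 18 BMDM cultures (TRIzol, TruSeq Stranded mRNA libraries) had been sequenced, and the authors deposited 1 table of raw counts per gene symbol. Per the submitters' processing notes, reads were trimmed with Trimmomatic 0.36 and aligned to GRCm39 with HISAT2 2.2.1.0. The paper adds that StringTie then assembled transcripts, and that its count tables came from this step. The annotation release and the strand setting are not given in the sources used here. Groups were taken from the sample labels, and 0 sample columns lacked a sample.

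The deposited counts were filtered with filterByExpr (12021 of 16314 genes), scaled by TMM (factors 0.818 to 1.2) and fitted over all 18 libraries with edgeR 4.0.16 (R 4.3.3, limma 3.58.1) by the quasi-likelihood test. The code was tested on simulated data. P-values were adjusted by Benjamini-Hochberg over all genes, and a call required both a fold change above 1.5 and an adjusted p below 0.05. Log2 CPM used a prior count of 2. Replicates were described as biological, and p-values measure only the spread between these samples. Library totals had a median of 21312254 counts and the common biological coefficient of variation was 0.167. Positions came from the GRCm39 annotation, where 15636 symbols matched 1 gene each, transcript identity from blastn 2.17.0, and promoters from RefSeq.

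The 10 genes and all lists were chosen with earlier results of these data known. Named genes were the 10 members, up to 3 called genes per direction, taken by size, from every other list in each knockout comparison (mean of at least 5 CPM), and the 5 genes most like Scd1. Values of these genes in further states, and Srebf2, were added after their values were seen. Scd1 was tested in M0 alone. The values of 1 listed gene are not reported here.

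Deviations from the group means were correlated between libraries of the same replicate number. The numbers were taken as pairs in the M2 genotype comparison (r of 0.249, 0.255 and 0.462) and in M1 against M0 of Prep-/- cells (0.201, 0.169 and 0.259). This rests on these correlations alone, since the labels do not say what a number marks. The values in the Results come from the fit without a replicate block, so their tests are unpaired. Alternatives were DESeq2 1.42.0, RLE and upper quartile scaling, other filters, other fold criteria including glmTreat, a fit of only the libraries compared, a replicate block, and leaving out each library. Pathway lists without Prep-/- M2 replicate 3 were added after seeing the data.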

Additional observations from a re-analysis of the deposited data

Results flagged for a closer look

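For 8 genes the knockout effect in M1 differed from that in M0 by an interaction test in edgeR. The difference was 4.93 for Fads2, 2.65 for Scd2, 2.57 for Elovl6, 2.19 for Fasn, 1.89 for Acaca, 1.23 for Elovl5, 0.95 for Srebf1 and 0.61 for Fads1 on the log2 scale, with adjusted p from 0.000221 to 0.0205. The same test of M2 against M0 gave 2.66 for Fads2 (adjusted p = 0.0359), 2.19 for Scd2 (adjusted p = 0.0362) and 1.05 for Elovl5 (adjusted p = 0.0125). The M1 and M2 tests share the M0 libraries.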

How the results depend on the processing

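The counts of called genes are of the 9 members other than Scd1. With no fold criterion, the counts became 1 higher in knockout M0, and in M1 or M2 against M0 1 lower in each Prep-/- comparison and 2 lower in Prep+/- M2. Under glmTreat they became 2 lower in knockout M0, 3 higher in knockout M1, 1 higher and 0 lower in knockout M2, 0 lower in Prep+/- M2 against M0, and 0 higher for the M2 interaction. With only the libraries compared, knockout M2 gave 1 higher and 0 lower and the M2 interaction 1 higher. Prep+/- M1 against M0 gave 1 higher (Scd2) with RLE, with no filter, with only the libraries compared and with either replicate block. Leaving out 1 library gave 5 to 8 higher in knockout M1, 1 to 3 higher and 0 to 2 lower in knockout M2, 5 to 8 higher in Prep-/- M1 against M0, 0 lower in Prep+/- M2 against M0, 0 to 1 lower in Prep-/- M2 against M0, and 1 to 5 higher for the M2 interaction. The cause of these changes was not tested beyond the construction of each alternative.

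By replicate block, knockout M2 kept the calls of Scd2 (2.13, adjusted p = 0.00161), Fads2 (1.87, adjusted p = 0.015) and Elovl6 (-1.24, adjusted p = 0.00704), and M1 against M0 in Prep-/- cells that of Scd2 (3.75, adjusted p = 4.7e-06). The block changed no other member call in these paired comparisons. In knockout M0, where r was -0.107, -0.0393 and -0.315, Elovl5 was at -0.58 with the block and not called.

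Values near 0 changed sign. Acly in Prep+/- M1 against M0 was 0.01 under DESeq2, RLE and only the libraries compared (with or without the block), 0.00 with the block over all libraries, and -0.09 to 0.09 without 1 library. Elovl5 in Prep+/- M2 against M0 was 0.01 with the block in a fit of only the libraries compared, and -0.12 to 0.12 without 1 library. The Fads1 M2 interaction was -0.01 with only the libraries compared, -0.02 with the block added to that fit, and -0.17 to 0.13 without 1 library. Without 1 library, Scd2 in knockout M0 ran from -0.14 to 0.18, Acaca in knockout M2 from -0.23 to 0.18 and the Elovl6 M2 interaction from -0.27 to 0.48. In M2 against M0, Prep-/- values ran from -0.59 to 0.16 for Elovl6 and from -0.50 to 1.34 for Fads2, and Prep+/- values from -0.93 to 0.07 for Scd1, from -0.09 to 0.06 for Acly and from -0.05 to 0.15 for Srebf1. The rank of Scd2 by likeness to Scd1 was 573 by Spearman rho and 140 by deviations from group means.

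Scd1 rested on 7 to 29 raw counts in Prep+/- libraries, which limits the precision of its fold changes.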
